A study of Mus musculus with 6 samples.

Results

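The genes of the cytosolic ribosomal proteins were examined in immortalized mouse pancreatic fibroblasts. Members were the rows of the count table with a symbol of an Rpl or Rps gene, of Rplp0, Rplp1 or Rplp2, or of Rpsa, without the Rps6k kinases and without symbols marked as pseudogenes, and 83 of the 14831 listed genes met this rule. They hold 31 genes of the small (40S) subunit, 46 genes of the large (60S) subunit, 4 paralogues (Rpl22l1, Rpl7l1, Rpl36al and Rps27l) and 2 genes annotated as processed pseudogenes, Rps3a2 and Rpl6l. The rule itself reads names only. Rpl3l, Rpl10l, Rpl39l and Rps4l, paralogues of other tissues, were not analysed here.

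The series compares 3 WT-labelled libraries with 3 labelled KO, the latter Gli2-/-;Gli3-/- by genotype, all from lines of mixed strain. The study describes such lines as fibroblasts of Gli floxed mice that were infected with an adenovirus carrying GFP (WT) or Cre (KO). Each library came from a separate well of cells grown to confluence in medium with calf serum, so the spread between libraries is that of wells of a line and of library preparation, not of independently made lines. Polyadenylated RNA was sequenced, to ask how the loss of both GLI factors changes the transcripts of these cells. Libraries are numbered here in the order of the sample list, which pairs no wells.

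The targeted genes were read first, and their counts ran against the labels. Gli2 had 27.1 ± 1.19 CPM (counts relative to the TMM-scaled library size; SD, n = 3) in the WT-labelled libraries and 56.2 ± 1.96 in the KO-labelled ones, and Gli3 had 12.5 ± 0.044 and 40.8 ± 1.64. Counts cover a gene as a whole, exons outside a deleted part included, so they do not show whether that part is missing. The groups are named by their labels alone throughout, no library was moved, and every direction below rests on those labels, against which the counts of these 2 genes run. Totals were 31728420 to 33905521 counts per WT-labelled library and 32781730 to 41035931 per KO-labelled library. Of 8 fibroblast markers tested, 6 were lower and 0 higher in the KO-labelled libraries, with summed levels of 57391 to 58124 CPM against 47284 to 49645 CPM. Thy1, a further fibroblast marker, was near 0 in every library, and Col1a1 was not called (15980 and 16111 CPM, log2 fold change 0.012, adjusted p = 0.799). The 3 epithelial markers tested of 10 (Krt7, Cdh1 and Cela1) were all higher, with sums over the 4 listed of 11.7 to 14.1 and 37.6 to 39.5 CPM, while Krt8 was at 0 in the second WT-labelled library and at most 0.363 CPM elsewhere. Of 10 immune and endothelial markers 2 were listed, Csf1r, which was not called, and Lyz2, which was lower. The part of these shifts in the results on ribosomal protein genes was not tested, and in libraries of whole cultures fewer cells of a type and less RNA per cell cannot be told apart. The third library of each group stood apart in short ribosomal protein transcripts, and member counts without the third KO-labelled library are also given.

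Ribosomes are assembled from ribosomal RNA and a set of proteins that is nearly the same in every cell, and the proteins are made in balanced amounts because unpaired ones are degraded. In mammals most of these proteins come from a single active gene each, scattered over nearly all chromosomes, with many silent retrocopies. Their mRNAs are short and abundant and start with a tract of pyrimidines (the 5′ terminal oligopyrimidine or TOP element), through which mTORC1 and LARP1 set their translation together.

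All 83 members passed the expression filter and were tested among 14289 genes. At an adjusted p under 0.05, 28 members were higher with the KO label and 14 lower, and 41 were not called. Over all genes tested, 58.7% were called, 29.9% higher and 28.8% lower, so the share of members called higher (33.7%) was near the background and the share called lower (16.9%) below it. No member reached the limit of 1.5-fold together with the test, whereas 17.7% of all genes did, and at a limit of 1.2-fold there were 9 members against 36.6% of all genes. The groups did not overlap in 45 members (54.2%), beside 64.2% of all genes. The median log2 fold change of the members was 0.035, and 51 of the 83 had a value above 0, beside a median of 0.0020 over all genes. The median size of a change, regardless of sign, was 0.11 on the log2 scale for the members, 0.22 for all genes and 0.15 for the 2272 genes with a mean over 100 CPM. The changes of the ribosomal protein genes were thus small, and they ran in both directions.

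**Figure D1:**
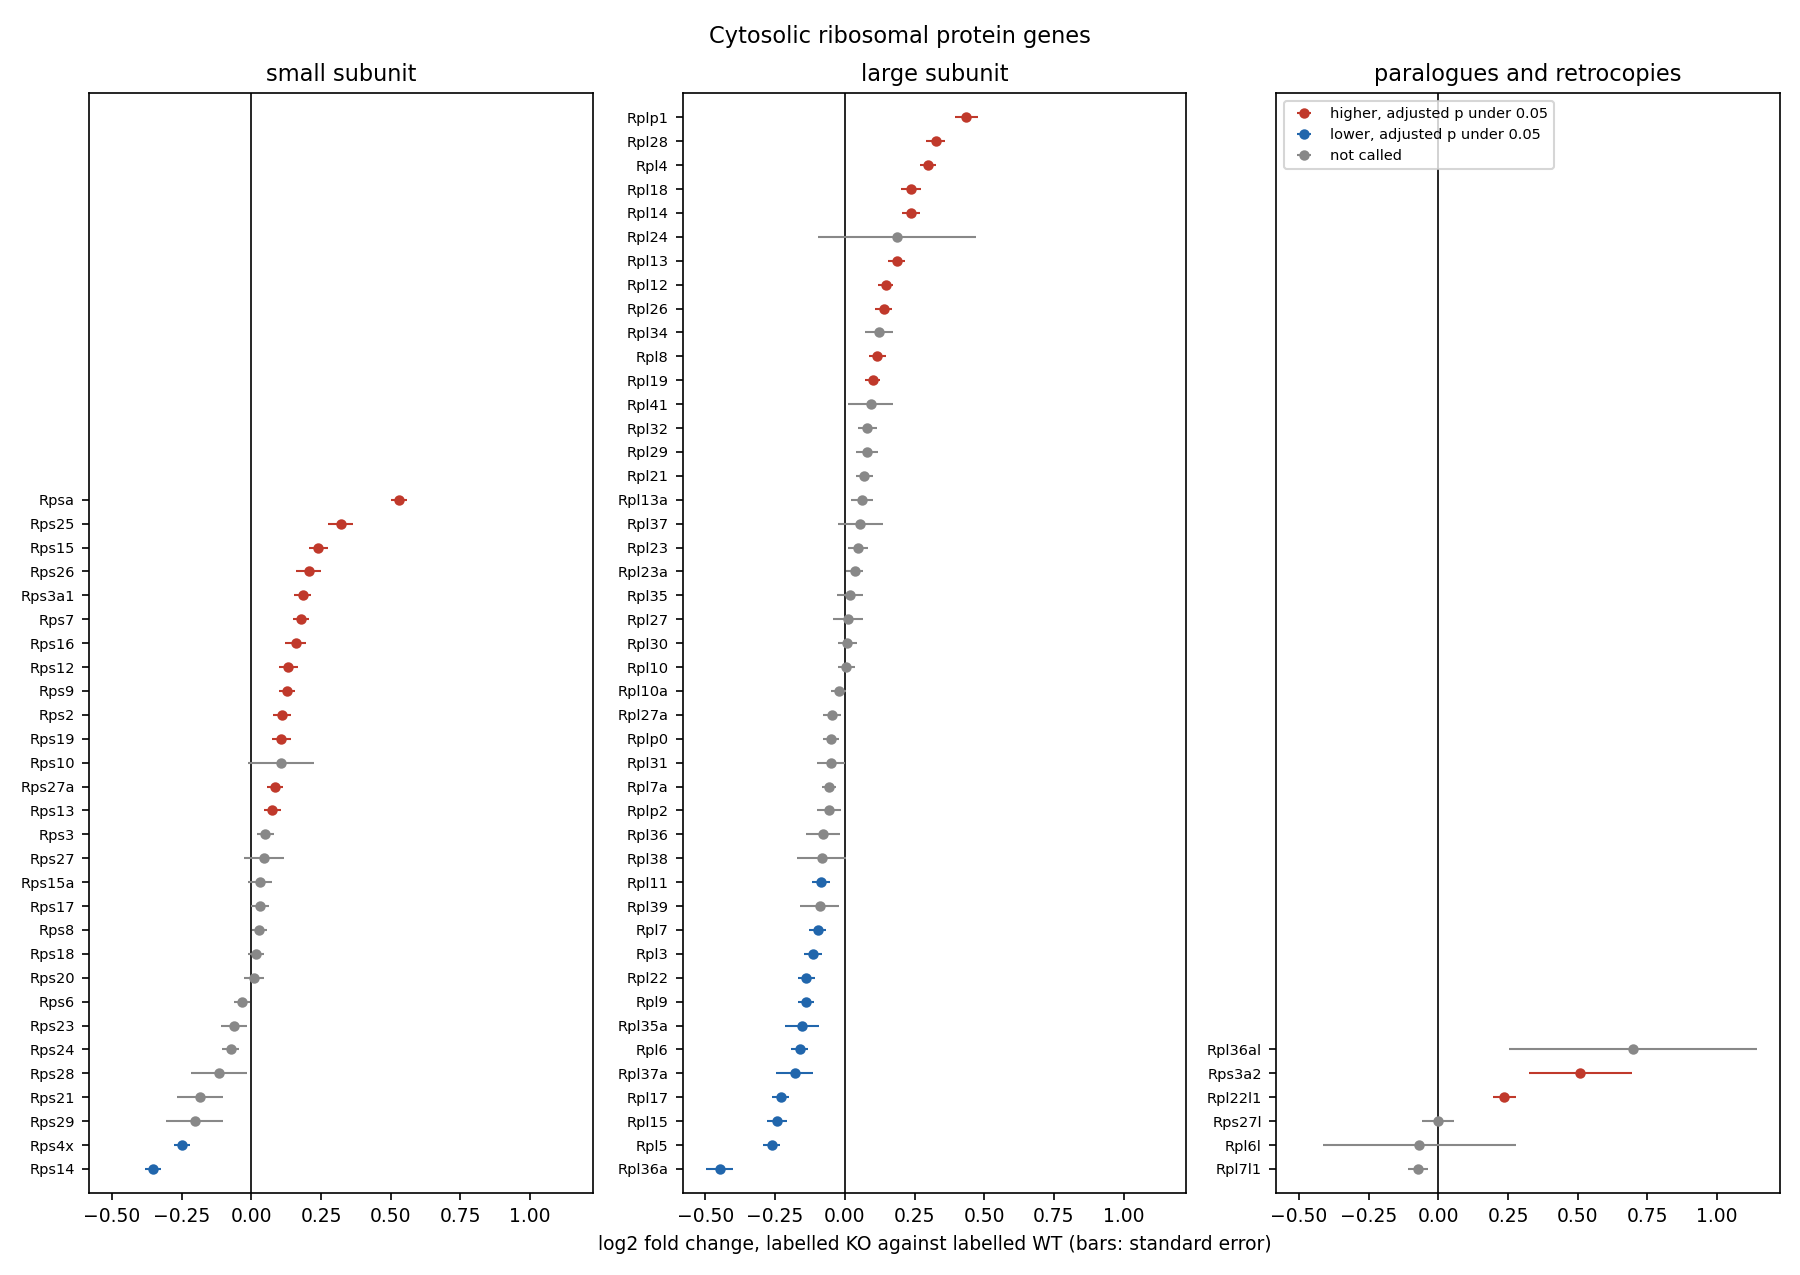
Log2 fold change (labelled KO against labelled WT, x axis) of 80 of the 83 members, with bars for the standard error, in panels for 29 small-subunit genes, 45 large-subunit genes, and the 4 paralogues with the 2 retrocopies. Red points were higher and blue points lower at an adjusted p under 0.05; among the small-subunit genes drawn 13 are red and 2 blue, among the large-subunit genes drawn 10 are red and 12 blue.

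The share of all counts that fell on the members was 3.82%, 3.83% and 3.73% in the WT-labelled libraries and 4.10%, 4.17% and 3.88% in the KO-labelled ones. The means were 3.79% ± 0.0518 and 4.05% ± 0.15 (SD, n = 3), a ratio of 1.07. The groups did not overlap in this share, although the third KO-labelled library lay close to the WT-labelled libraries. The 95% Wilson interval of that library was 3.87% to 3.89% and covers counting error only. These shares use total counts without TMM scaling. With TMM-scaled library sizes the members summed to 38646.1, 38759.5 and 37777.2 CPM with the WT label and 40488.4, 41024.5 and 38541.9 CPM with the KO label. On that scale the groups overlapped. The share of the mitochondrial ribosomal proteins went the other way, with means of 0.217% ± 0.00303 and 0.207% ± 0.0069.

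**Figure D2:**
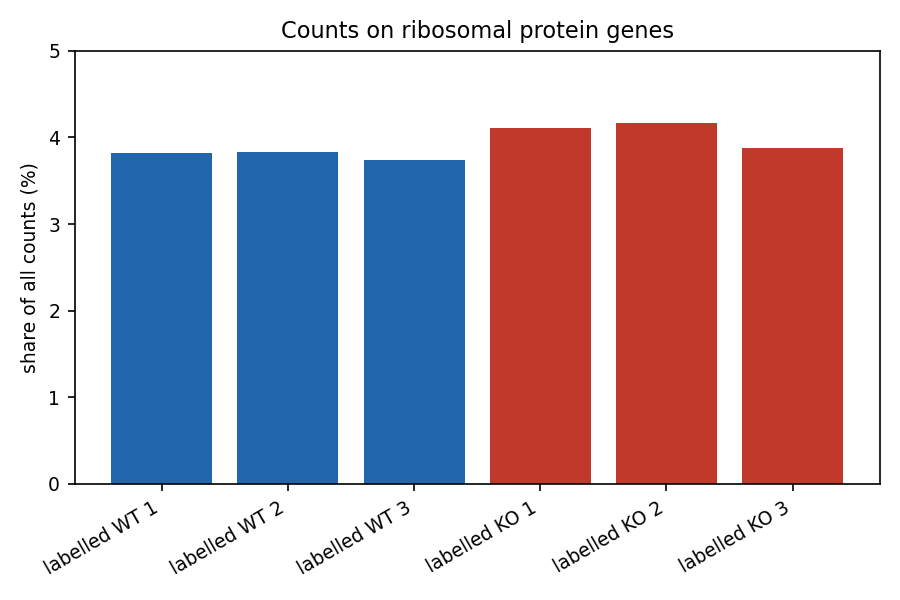
Share of all counts on the 83 members (y axis, %) in each of the 6 libraries, as single bars without error. The WT-labelled libraries lie between 3.73% and 3.83%, the KO-labelled ones between 3.88% and 4.17%.

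In the small subunit 15 of 31 genes were higher and 2 lower, with a median log2 fold change of 0.075. These shares were 48.4% and 6.45%, beside 29.9% and 28.8% of all genes. The leading gene was Rpsa (chromosome 9 from 120127689 to 120132369, plus strand; GENCODE M21, GRCm38), which encodes a 40S protein that has also been described as a laminin receptor. It measured 862, 884 and 836 CPM in the WT-labelled libraries and 1243, 1258 and 1227 CPM in the KO-labelled ones. The 2 groups were far apart relative to their spread, and the log2 fold change was 0.53 (SE 0.03, adjusted p = 9.88e-09, edgeR quasi-likelihood test), or 44.4% more. Every KO-labelled library was above every WT-labelled library.

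Rps25, a protein used by several viral internal ribosome entry sites (chromosome 9 from 44407139 to 44410427), had 206, 206 and 193 CPM against 252, 268 and 234, a log2 fold change of 0.32 (adjusted p = 5.31e-05). Rps15 was also higher (0.24), again without overlap between the groups. Both genes lie outside the naming rule and were named after their values were seen, as were Rpl12, Rpl14, Rps19, Rps26 and Rpl35a. Of 5 members listed here as lining the mRNA channel or lying close to it (Rpsa, Rps2, Rps3, Rps26 and Rps28), 3 were higher and 0 lower. They are too few to set against the 29.9% and 28.8% of all genes. The list is not a full one, and genes outside the rule for members, such as Fau, which was lower, were not on it. Rps2, the most abundant small-subunit transcript by counts, measured 1267, 1224 and 1194 CPM against 1363, 1327 and 1288 CPM, a log2 fold change of 0.11 (adjusted p = 0.00962). This call was lost without the first KO-labelled library (0.085), without the third WT-labelled library (0.087), with limma on the deposited values (0.11) and with libraries scaled to the members (0.051).

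Only Rps14 and Rps4x were called lower among the small-subunit genes. Rps14 encodes a platform protein, and haploinsufficiency of the human gene underlies the anaemia of the 5q- syndrome. The gene (chromosome 18 from 60747098 to 60778546) measured 1066, 1028 and 1026 CPM in the WT-labelled libraries and 830, 823 and 790 CPM in the KO-labelled ones. Its log2 fold change was -0.35 (SE 0.03, adjusted p = 5.96e-07), and the groups did not overlap. Rps4x, the X-linked form of the S4 protein (chromosome X from 102184941 to 102189394), measured 878, 891 and 859 CPM against 734, 751 and 724, a log2 fold change of -0.25 (adjusted p = 8.14e-06). Rps6, whose protein is the classical substrate of the S6 kinases, had 341, 337 and 334 CPM against 335, 336 and 319, a log2 fold change of -0.034 (adjusted p = 0.36), and its groups overlapped.

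In the large subunit 11 of 46 genes were higher and 12 lower, with a median log2 fold change of 0.010. These shares, 23.9% and 26.1%, were near those of all genes (29.9% and 28.8%). Among the 4 stalk genes, too few to set against those shares, 2 were higher and 0 lower. The stalk is the flexible arm that recruits translation factors, and it is built from the base protein of Rplp0, with the acidic proteins of Rplp1 and Rplp2 bound to it, next to Rpl12. Rplp1 (chromosome 9 from 61913284 to 61914542) had 709, 713 and 671 CPM in the WT-labelled libraries and 985, 966 and 881 CPM in the KO-labelled ones, a log2 fold change of 0.44 (SE 0.04, adjusted p = 1.58e-06). Its partner Rplp2 had 292, 290 and 282 CPM against 289, 287 and 254, a log2 fold change of -0.057 (adjusted p = 0.289). The groups were thus apart for Rplp1 and overlapped for Rplp2, although both proteins form dimers with each other in the stalk. Rplp0, the highest member by counts and a frequent reference gene, had 1551, 1581 and 1518 CPM against 1498, 1510 and 1485 CPM, a log2 fold change of -0.050 that was not called (adjusted p = 0.133). Rpl12 was higher, with a log2 fold change of 0.15 (adjusted p = 0.00054).

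Rpl28, a large-subunit protein found in eukaryotes (chromosome 7 from 4792874 to 4795066), measured 453, 436 and 436 CPM against 561, 570 and 530, a log2 fold change of 0.33 (SE 0.03, adjusted p = 3.11e-06). Of the 8 proteins around the exit tunnel 3 were higher and 1 lower (37.5% and 12.5%, beside 29.9% and 28.8% of all genes). Rpl4, which reaches into the tunnel (chromosome 9 from 64173375 to 64178666), measured 1047, 1087 and 1076 CPM against 1327, 1327 and 1291 CPM, a log2 fold change of 0.30 (adjusted p = 1.39e-06). Neither Rpl28 nor Rpl4 had an overlap between the groups.

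Among the lower large-subunit genes, Rpl36a stood first. It lies on the X chromosome (134585654 to 134588062) and measured 174, 175 and 165 CPM in the WT-labelled libraries and 128, 134 and 115 CPM in the KO-labelled ones, a log2 fold change of -0.45 (SE 0.05, adjusted p = 6.26e-06). Rpl5 and Rpl11, which carry the 5S rRNA into the ribosome and bind MDM2 when assembly fails, were both lower. Rpl5 (chromosome 5 from 107900502 to 107909005) had 617, 634 and 625 CPM against 534, 529 and 502, a log2 fold change of -0.26 (adjusted p = 1.11e-05). For Rpl11 the values were 241, 237 and 239 CPM against 229, 231 and 215, a log2 fold change of -0.086 at an adjusted p of 0.0417. The Rpl5 groups were well apart, while the call of Rpl11 was lost without the third KO-labelled library (-0.052) and without the first (-0.082), the second (-0.095) or the third (-0.088) WT-labelled one. It was also lost with DESeq2 (-0.089), limma on the deposited values (-0.090), a minimum of 10 counts in every library (-0.079), total-count scaling (-0.051) and upper-quartile scaling (-0.029). Rpl15 (chromosome 14 from 18267823 to 18271391) measured 455, 454 and 436 CPM against 382, 394 and 359, a log2 fold change of -0.24 (adjusted p = 8.27e-05). Rpl17, a tunnel-exit protein (chromosome 18 from 74998558 to 75003381), measured 621, 642 and 628 CPM against 520, 551 and 542, a log2 fold change of -0.23 (adjusted p = 3.31e-05). Neither gene had an overlap between the groups.

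Of the 19 genes with mutations known in Diamond-Blackfan anaemia, a red cell aplasia of ribosomal protein deficiency, 5 were higher and 4 lower (26.3% and 21.1%, beside 29.9% and 28.8% of all genes). Rps19, the gene affected most often, was among the higher ones (log2 fold change 0.11, adjusted p = 0.0149), and Rpl5, Rpl11, Rpl15 and Rpl35a (-0.15, adjusted p = 0.0481) were the lower ones.

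**Figure D3:**
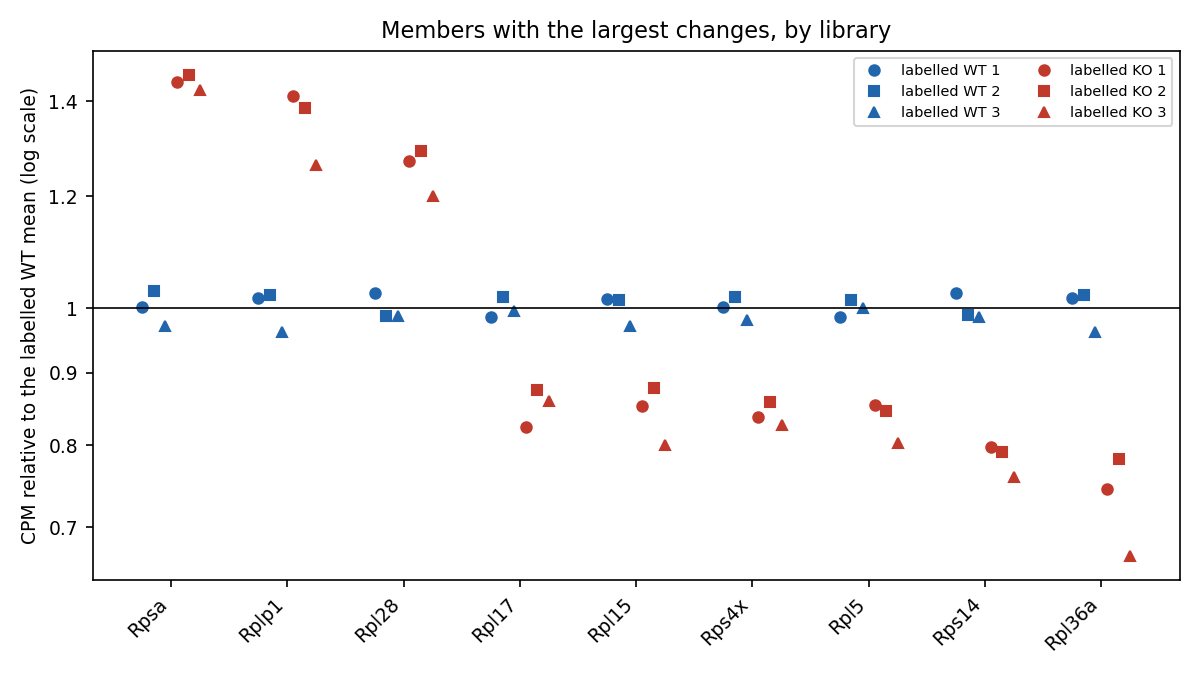
CPM of each library divided by the mean of the 3 WT-labelled libraries (y axis, log scale) for 9 members among those with the largest changes in either direction and a mean over 10 CPM. Blue symbols are WT-labelled libraries and red symbols KO-labelled libraries, and the marker shape gives the library number; in each gene the red symbols lie wholly above or wholly below the blue ones.

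Promoter sequences from RefSeq (GRCm38.p6) were found for 61 of the 83 members, with 72 windows from 250 bases before to 50 after the start. Stretches of 70 bases before and 30 after the start are printed for the members with the largest changes and a mean over 10 CPM that had a window, with Rplp0 as the abundant gene that was not called and Rpl22l1 as the paralogue that rose. Capitals mark the longest run of C and T on the strand of the gene, the letters from which a TOP element is made.
Rpsa, chr9:120127696-120127795, plus strand: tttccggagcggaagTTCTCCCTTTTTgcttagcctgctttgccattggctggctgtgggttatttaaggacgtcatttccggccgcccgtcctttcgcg
Rpl28, chr7:4792895-4792994, plus strand: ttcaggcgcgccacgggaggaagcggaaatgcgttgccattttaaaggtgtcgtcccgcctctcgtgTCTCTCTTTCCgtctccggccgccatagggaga
Rpl36a, chrX:134585584-134585683, plus strand: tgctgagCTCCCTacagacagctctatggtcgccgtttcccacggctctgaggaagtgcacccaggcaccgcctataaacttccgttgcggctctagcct
Rpl5, chr5:107900458-107900557, plus strand: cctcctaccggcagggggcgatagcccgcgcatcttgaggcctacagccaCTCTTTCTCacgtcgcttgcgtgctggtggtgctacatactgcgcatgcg
Rps4x, chrX:102189362-102189461, minus strand: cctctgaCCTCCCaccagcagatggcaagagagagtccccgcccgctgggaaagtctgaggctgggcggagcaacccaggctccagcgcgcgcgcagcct
Rpl15, chr14:18270957-18271056, minus strand: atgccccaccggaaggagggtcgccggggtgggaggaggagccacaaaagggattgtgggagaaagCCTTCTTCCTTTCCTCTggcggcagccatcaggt
Rplp0, chr5:115559397-115559496, plus strand: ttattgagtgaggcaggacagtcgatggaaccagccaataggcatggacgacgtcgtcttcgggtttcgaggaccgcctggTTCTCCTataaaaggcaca
Rpl22l1, chr3:28805438-28805537, plus strand: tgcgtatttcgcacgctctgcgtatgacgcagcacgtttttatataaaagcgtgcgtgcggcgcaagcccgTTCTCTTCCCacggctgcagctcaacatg
In Rpl28 and Rpl15 this run spans the start and in Rpl22l1 it follows it directly, in Rplp0 it lies downstream, and in Rpsa, Rpl36a, Rpl5 and Rps4x it lies upstream. Within 20 bases of the start, a run of at least 8 pyrimidines was found in 30 of the 61 members (49.2%) and in 18.4% of the 27025 genes of the promoter table. It was in 11 of 21 members called higher, in 3 of 10 called lower and in 16 of 30 not called. Among the other genes tested here with a window (9935), the share was 19.0%. Over the whole window and on either strand, CTTTCC was in 32 of the 61 members (52.5%), in 30.4% of the other genes tested and in 29.3% of the whole table. CCGGAAG was in 25 members, in 20.3% of the other genes tested and in 9.93% of the table, and TATAAA in 7 members (11.5%), 8.56% and 15.7%. None of the 3 motifs contains another. These matches describe letters, and no binding was measured.

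The members' values went with their chromosome, a grouping chosen after the data were seen. For the 78 members with a mean over 10 CPM, the log2 fold change tracked the median log2 fold change of the other genes on the same chromosome (Pearson r = 0.74, Spearman rho = 0.74, across genes, which are not independent and share libraries and scaling). Leaving out each chromosome in turn gave r between 0.71 and 0.76. With neighbours within 5 Mb in place of the chromosome, r was 0.78 over 77 members. The same relation held over other genes with r = 0.24 (rho = 0.46, n = 9121), and with r = 0.48 over the 8329 of them with changes under 0.6 on the log2 scale.

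On chromosomes 3, 8 and 9, where the median of the other genes was above 0.1, 12 of 13 members had a value above 0, with 9 higher and 0 lower; of the other genes there 61.6% were higher. Chromosome 9 alone held Rpsa, Rplp1, Rps25, Rpl4 and Rpl14, all 5 of them higher, beside Rpl29 and Rps27l, which were not called. On chromosomes 1, 4, 5, 16, 17, 18 and X, with medians below -0.1, 20 of 26 members had a value below 0, with 12 lower and 1 higher; of the other genes there 61.0% were lower. The medians of the other genes were -0.32 on chromosome 18, which holds Rps14 and Rpl17, -0.22 on X, which holds Rpl36a and Rps4x, and -0.23 on chromosome 5, which holds Rpl5. On the 10 remaining chromosomes 17 of 39 members were higher and 2 lower, while of the other genes there 29.5% were higher and 28.7% lower.

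Chromosome 7, with 14 members, showed the same within its length. Over the whole chromosome 43.1% of the other genes were higher and 20.4% lower, beside 29.9% and 28.8% of all genes. Shares within parts of the chromosome were not taken. The 8 members from Rps9 to Rpl18 along the first part had a median log2 fold change of 0.19, and 7 of them were higher, beside a median of 0.16 among their neighbours. The 6 members further along, among them Rplp2 and Rpl27a, had a median of 0.031 with 1 higher, and their neighbours a median of -0.062. The cause was not tested.

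**Figure D4:**
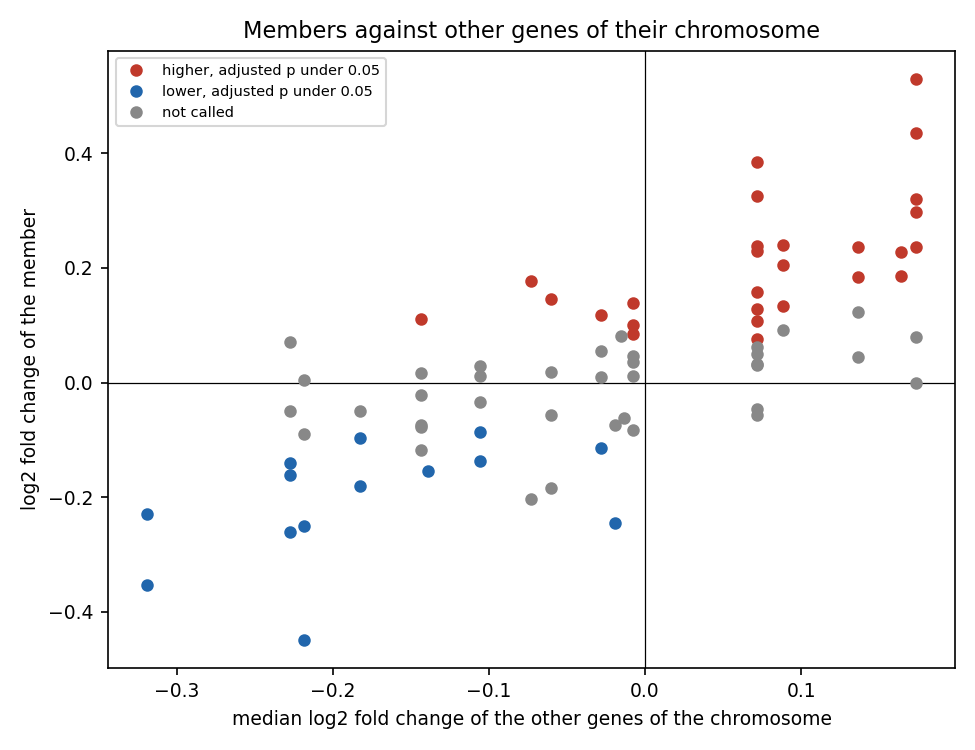
Log2 fold change of each of the 78 members with a mean over 10 CPM (y axis) against the median log2 fold change of the other genes of its chromosome (x axis). Each point is a gene, red if higher and blue if lower at an adjusted p under 0.05; the blue points lie at negative medians and most red points at positive ones (r = 0.74).

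When the median deviation of the other genes of a chromosome was removed from each library, 31 members were higher and 6 lower (28.9% and 22.6% of all genes), and the calls were in part different ones. Of the 28 members called higher before, 18 kept their call, and of the 14 called lower 3 did. Rpsa stayed at 0.35, while Rps14 and Rps4x came to -0.030 and -0.031 and Rpl5 to -0.044, and none of these last 3 passed the test. Of the members called in the first fit, 7 changed sign (Rps13, Rpl11, Rpl7, Rpl9, Rpl6, Rpl37a and Rpl17).

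The number of members called in each direction depended on the scaling. By total counts alone 33 were higher and 10 lower (76.7% of the calls were higher, beside 66.7% with TMM scaling). By upper-quartile scaling 39 were higher and 9 lower (81.3%). The calls over all genes shifted in the same direction, to 33.9% higher and 25.3% lower by total counts. By upper quartile they were 36.3% and 23.0%. When each library was scaled to its summed member counts, so that the members were compared with each other, 18 were higher and 27 lower (40.0% of the calls were higher; 22.9% of all genes were higher and 33.9% lower). After scaling to the members, Rpsa was at 0.47 and Rps14 at -0.41, so the transcripts of the ribosome did not change in equal proportion.

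The third library of each group was lower in short ribosomal protein transcripts. Among the 29 members with a principal transcript under 600 bases, the third KO-labelled library had a median log2 deviation of -0.15 from the other KO-labelled libraries, and it was lower in all 29. In the 49 longer members the median was -0.058, and for other genes it was -0.086 under 600 bases (n = 155) and -0.0052 above (n = 8966). The library was also lower in 45 of the 49 longer members. Among other genes it was lower in 115 of the 155 short ones and in 4714 of the 8966 longer ones. The third WT-labelled library showed the same to a lesser extent, with -0.056 in the short members and -0.028 in the longer ones. Across the 78 members, the deviation of the third KO-labelled library had r = 0.56 with the log2 length of the transcript and r = 0.82 with the deviation of the third WT-labelled library.

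In the third KO-labelled library Rps28 was the most displaced member; it had 166, 150 and 143 CPM in the WT-labelled libraries and 151, 160 and 112 CPM in the KO-labelled ones. Rps29, another of the shortest members, had 53.7, 51.2 and 44.9 CPM against 47.1, 48.1 and 34.3, and its log2 fold change of -0.20 was not called (adjusted p = 0.107). Rps28 encodes a small protein near the mRNA exit and Rps29 a small zinc-binding protein of the 40S head; both were named after their values were seen. Without the third KO-labelled library, 37 members were higher and 10 lower with a median of 0.075, and without the second 22 were higher and 16 lower with a median of 0.0028.

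**Figure D5:**
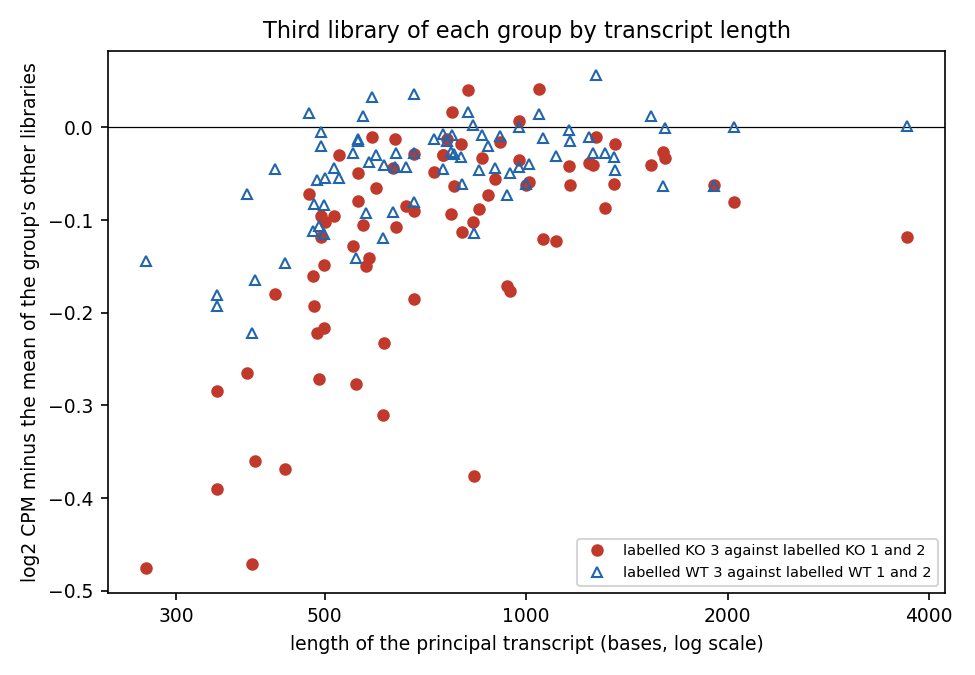
Log2 CPM of the third library of each group minus the mean of the other libraries of its group (y axis) against the length of the principal transcript in bases (x axis, log scale), for the 78 members with a mean over 10 CPM. Filled circles are the third KO-labelled library and open triangles the third WT-labelled library; the lowest circles, at -0.48 and -0.47, are Rps28 and Rps29.

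Paralogues replace or accompany a core protein in particular tissues. Rpl22l1, a paralogue of Rpl22 that Rpl22 protein is known to repress, had 80.3, 82.5 and 79.9 CPM in the WT-labelled libraries and 95.8, 100 and 89.7 CPM in the KO-labelled ones. It was higher with a log2 fold change of 0.24 (SE 0.04, adjusted p = 0.000274). Rpl22 itself was lower, with 195, 199 and 199 CPM against 180, 185 and 174 and a log2 fold change of -0.14 (adjusted p = 0.00229). The ratio of Rpl22l1 to Rpl22 thus went from 40.9% to 52.9%, a difference of 0.37 on the log2 scale, without overlap between the groups. The exact two-sided permutation test gave p = 0.1, the smallest that 3 against 3 libraries allow, and 0.4 after adjustment over the 4 pairs. With the chromosome median removed, neither gene was called, with log2 fold changes of 0.097 for Rpl22l1 (adjusted p = 0.0656) and -0.027 for Rpl22 (adjusted p = 0.501).

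For Rpl7l1, which takes part in 60S assembly, the ratio to Rpl7 was 8.13% and 8.25% (difference 0.022, exact p = 0.6). Rps27l, a target of p53, was at 32.1% and 31.1% of Rps27 (difference -0.047, exact p = 0.3). Rpl36al reached only 0.439 CPM, with 10, 18 and 4 counts in the WT-labelled libraries and 27, 13 and 19 in the KO-labelled ones, and its ratio to Rpl36a overlapped between the groups (difference 1.34, exact p = 0.2). Without the second WT-labelled library this difference was 1.80 and without the third 0.80. Of the retrocopies, Rps3a2 was higher at 1.34, 1.28 and 1.13 CPM against 1.58, 2.16 and 1.54 CPM (log2 fold change 0.51, adjusted p = 0.0305), a call that was lost without the second KO-labelled library (0.32) and without the second (0.53) or the third (0.44) WT-labelled library, and with DESeq2 (0.50). Rpl6l stayed under 0.5 CPM with a log2 fold change of -0.068.

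Levels per kilobase of principal transcript were highest for Rps12 (1958 CPM per kb), Rps15 (1673) and Rplp1 (1645), and lay under 50 CPM per kb for Rpl24 (1.01), Rps10 (9.56) and Rpl13a (40.2) among the canonical subunits. These 3 proteins are parts of every ribosome. Rpl24 had 18, 24 and 21 counts in the WT-labelled libraries and 22, 43 and 17 in the KO-labelled ones, and Rps10 had 3.86, 4.54 and 5.32 CPM against 4.97, 4.68 and 5.18. Each of the 3 genes overlaps another annotated gene on the same strand in GENCODE M21, Rpl24 with Gm28037 in 47.0% of its exon bases, Rps10 with RPS10-NUDT3 in 20.6% and Rpl13a with Gm45713 in 29.4%. Rpl36al overlaps Gm49383 in 24.5%. How the counting treated reads in overlapping genes, and reads that match several places, is not given in the sources used here. GENCODE M21 names 300 ribosomal protein pseudogenes, so the level of a member may hold or lack reads of its copies.

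The table lists 46 pseudogene rows, and 41 of these were tested, with 5 higher and 2 lower, and their median was 0.0065. The shares called were 12.2% and 4.88%, beside 29.9% and 28.8% of all genes. Rpsa-ps10 was higher (log2 fold change 0.55, 1.75 ± 0.285 against 2.55 ± 0.221 CPM), as was its parent Rpsa, and Rpl17-ps10 was lower (-0.29), as was Rpl17. Other copies did not go with their parents. Rps12-ps3 was lower (-0.51) while Rps12 was higher (0.13), and Rpl23a-ps3 was higher (0.62) while Rpl23a was not called (0.035). Reads of a parent and of such a copy cannot be told apart with certainty in this table. Fau, which encodes the small-subunit protein eS30 as a fusion with a ubiquitin-like domain and has no symbol of the rule, was lower, with 401 ± 5.55 against 368 ± 18.6 CPM (SD, n = 3; log2 fold change -0.13, adjusted p = 0.0099).

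Of 20 genes of the RNA polymerase I machinery, which makes the rRNA, 6 were higher and 6 lower, shares near the background of 29.9% and 28.8% over all genes; Twistnb (0.34) and Taf1d (0.30) led the higher and Polr2h (-0.42) and Znrd1 (-0.32) the lower ones. Of 51 genes of rRNA processing and assembly 18 were higher and 8 lower (35.3% and 15.7%). Ltv1, a 40S assembly factor, was at 0.67 (31.4 ± 0.862 against 49.95 ± 0.779 CPM), Gar1 at 0.43, Nop14 at -0.49 and Sbds at -0.28. Of 12 chaperones and importers of ribosomal proteins 5 were higher and 4 lower (41.7% and 33.3%). Beside Ltv1, Grwd1 (0.42) was higher, while Tsr2 (-0.38), the chaperone of Rps26, and Pdcd2 (-0.27), that of Rps2, were lower. Rps26 and Rps2 were themselves higher.

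Of 18 other transcripts with a TOP element, mostly translation factors, 6 were higher and 6 lower (33.3% each), also near the background. Pabpc1, the poly(A)-binding protein, was higher (log2 fold change 0.25, 1403 ± 35.1 against 1666 ± 63.7 CPM), as was Tpt1 (0.22), and Eif4b (-0.29) and Btf3 (-0.21) were lower. Of 20 genes of TOP mRNA control and mTORC1, 6 were higher and 6 lower, again near the background. Larp1, which binds the TOP element, had 224 ± 9.68 and 218 ± 4.02 CPM (log2 fold change -0.038, adjusted p = 0.371), and Mtor (-0.11, adjusted p = 0.111) and Rps6kb1 (-0.051, adjusted p = 0.254) were not called either. Deptor, an inhibitor of mTOR, was lower (-1.77, 164 ± 6.5 against 48.2 ± 2.74 CPM), as was Max (-0.37). Higher were Myc, a known activator of ribosome genes (0.57, 16.9 ± 2.53 against 24.97 ± 1.85 CPM), Mycn (2.37), Larp1b (1.12) and Eif4ebp1 (0.15). Of 77 mitochondrial ribosomal proteins, which are made from nuclear genes for a separate ribosome, 10 were higher and 24 lower with a median of -0.061. These shares were 13.0% and 31.2%, beside 29.9% and 28.8% of all genes. Mrpl13 was the only one past 1.5-fold (-1.25, 114 ± 6.85 against 48.0 ± 3.37 CPM). Mrps18a (-0.44) was also lower, and Mrps31 (0.31) and Mrps11 (0.21) were higher.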

How the data were processed

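RNAseq libraries of 3 wells labelled WT and 3 labelled KO were analysed, with groups taken from the genotype labels. The authors deposited raw read counts per gene, made with STAR 2.7.2b and featureCounts on GRCm38.p6 per the submitters' processing notes. They also deposited log2 CPM values from limma's voom, which were used only as an alternative. Genes with low counts had been removed. Strand setting and treatment of multimapped reads are not given in the sources used here.

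Counts were tested with edgeR 4.0.16 (R 4.3.3; TMM scaling, filterByExpr, quasi-likelihood F test, Benjamini-Hochberg adjustment over 14289 genes). CPM values use the TMM-scaled library sizes (factors 0.988 to 1.02). Of the identifiers, 14822 matched GENCODE M21 without the version. Counts were simulated from these libraries with the same spread for every gene, a common biological coefficient of variation of 3.74%. In these counts 99% of 200 changed genes among 14104 were recovered with 5 false calls. Spread that differs between genes, or a library that deviates from its group, was not simulated. These figures therefore do not show how the fit performs on the real libraries. Recovery of changes as small as those of the members (median size 0.11 on the log2 scale) was not tested separately. A share of changed genes as large as the 58.7% called here was not tested either. Within groups, chi-square per degree of freedom was 2.47 to 7.53, so all 6 libraries were counted separately. Named members were the 6 with the largest change in each direction, paralogues with their partners, the 5 highest and 3 lowest canonical genes and Rplp0, Rplp1, Rplp2, Rpl5, Rpl11, Rps6 and Rpsa; other genes were a short list and up to 2 per direction and list. Some genes that this rule names are not reported here by name, and they stay in all counts. Members and lists were chosen with earlier results of these data known. Ratios of paralogues were tested by exact permutation (scipy 1.17.1). Neighbouring genes had a mean over 10 CPM. Alternatives were RLE, upper-quartile, total-count and member-free TMM scaling, other filters, DESeq2 1.42.0, limma-voom and limma 3.58.1 on the deposited values, removal of length and GC trends and leaving out each library. Removal of chromosome medians was chosen after seeing the data. With 3 libraries a group, precision is limited by the spread between wells, and p-values set the difference between the groups against that spread. They do not cover differences between independently made lines.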

Additional observations from a re-analysis of the deposited data

How the results depend on the processing

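The counts of 28 higher and 14 lower members ranged from 22 to 39 and from 6 to 18 over the alternatives. Leaving out 1 library gave 22 to 37 higher and 10 to 16 lower members. The number of lower members was 9 by upper-quartile scaling and 6 with the chromosome median removed. Upper-quartile scaling also moved the median log2 fold change, to 0.092 for the members and 0.059 for all genes. DESeq2 called 26 higher and 12 lower, limma-voom 29 and 16, and limma on the deposited values 22 and 10. The count past 1.5-fold, 0, became 1 by upper-quartile scaling (Rpsa), was 1 without the third KO-labelled library (Rps3a2) and 0 without any of the others, and was 9 at a limit of 1.2-fold. With libraries scaled to their summed member counts, 14 to 19 members were higher and 17 to 25 lower when a library was left out, the lowest count (17) without the second WT-labelled library.

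Of 475 values of the 28 named members under the alternatives, 24 had the other sign, and 16 of these genes had none. With the chromosome median removed the log2 fold changes were 0.093 for Rpl17, 0.069 for Rpl7l1, 0.089 for Rpl7, -0.096 for Rps27, 0.17 for Rplp0, -0.015 for Rpl13a, 0.024 for Rpl11 and 0.077 for Rps6. Rps27l, at -0.0016, came to 0.0056 with at least 10 counts in every library, 0.0016 with length and GC trends removed, 0.033 by total counts and 0.055 by upper quartile. By upper-quartile scaling Rplp0 was at 0.0072, Rplp2 at 0.00052 and Rps6 at 0.023, and by total counts Rps6 was at 0.0011. When a library was left out, Rps27l ranged from -0.063 to 0.067, Rps27 from -0.020 to 0.13, Rpl24 from -0.19 to 0.37, Rps10 from -9.67e-05 to 0.23 and Rplp2 from -0.092 to 0.0020. The causes were not tested. No paired analysis was possible because the labels give no replicate numbers that the groups share. Rpl24, Rps10, Rpl36al and the retrocopies had too few counts for small differences to be detectable.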
